A study of Mus musculus with 57 samples.

Results

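The genes of the proteasome were followed in mouse hearts after doxorubicin (Doxo), an anthracycline chemotherapy drug with cardiac toxicity, with or without nicotinamide mononucleotide (NMN), a precursor of NAD+. Members were the genes whose symbol in both count tables was Psm, then a letter from a to f, then a number, with pseudogenes left out. This rule found 46 genes among the 25416 genes of the acute table and the 54658 genes of the chronic table. They comprised 14 subunits of the 20S core (Psma1 to Psma7 and Psmb1 to Psmb7), 17 subunits of the 19S cap (Psmc1 to Psmc6 and 11 Psmd genes), the 3 immunoproteasome subunits Psmb8, Psmb9 and Psmb10, the 4 activators Psme1 to Psme4, the 3 assembly chaperones Psmd5, Psmd9 and Psmd10, the regulator Psmf1, the testis subunit Psma8 and the thymus subunit Psmb11. The other 2 matched by their letters alone, Psmc3ip, which acts in meiotic recombination, and Psme2b, a near copy of Psme2 with which it may share reads. Of the 46, 45 passed the filter on low counts in each study, the exception being Psmb11 in both.

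The proteasome is the main protease for proteins tagged with ubiquitin. Its 20S core is a barrel of alpha and beta rings, in which the beta subunits encoded by Psmb5, Psmb6 and Psmb7 cut the substrate, and its 19S cap binds the ubiquitin tag, removes it and unfolds the substrate with a ring of ATPases. Interferon-induced replacements of the cutting subunits form the immunoproteasome, which is abundant in immune cells and makes peptides for antigen presentation, and separate activators can dock on the core in place of the cap. In heart muscle the proteasome takes part in the turnover of contractile proteins.

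RNA-seq was done on heart RNA of 57 male wild-type C57BL6/J mice in an acute and a chronic study, each with the groups Ctrl, Doxo and Doxo-NMN. In the acute study, mice bought at 9 weeks of age received saline (Ctrl, n = 14), 1 intraperitoneal injection of Doxo at 20 mg/kg in saline (Doxo, n = 13), or that injection plus daily intraperitoneal NMN at 180 mg/kg per day, begun 5 days before it (Doxo-NMN, n = 13), and hearts of surviving mice were taken on day 5. In the chronic study, mice aged 14 to 16 weeks received PBS (Ctrl, n = 5), 5 injections of Doxo in PBS at 4 mg/kg, 20 mg/kg in all (Doxo, n = 6), or those injections plus NMN at 500 mg/kg per day in drinking water (Doxo-NMN, n = 6), and hearts of surviving mice were taken on day 60. No group received NMN without Doxo, so an action of NMN apart from Doxo was not measured.

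Total counts per heart were 3.24e+07 to 5.21e+07 in the acute study and 1.78e+07 to 2.39e+07 in the chronic study, and levels are given below as CPM, counts scaled to a common library size. Each heart was placed along the mean difference between Doxo and Ctrl over all genes tested in its study, with the Ctrl mean at 0 and the Doxo mean at 1. On this scale acute Doxo replicate 6 lay at 0.0483, inside the Ctrl range of -0.0542 to 0.0664, and the remaining 12 had values of 0.444 to 1.46. In the chronic study Doxo replicate 2 lay at 2.26, above the other Doxo hearts (0.607 to 0.878). Ctrl replicate 1 lay at -0.431, below the other Ctrl hearts (0.0771 to 0.151). It also stood apart from them in immunoproteasome genes and in some other members. Values of the leading genes are given with and without these 3 hearts where they bear on them. Doxo-NMN hearts lay at 0.218 to 0.916 on this scale in the acute study, the highest being replicate 10, and at 0.351 to 0.959 in the chronic study. All 6 cardiomyocyte markers examined (Myh6, Tnnt2, Actc1, Ttn, Myl2 and Tnni3) were expressed in both studies, with a summed level of 57795 to 72897 CPM in acute Ctrl hearts and 29172 to 73176 CPM in acute Doxo hearts, and 5 of the 6 fell while Tnnt2 rose after acute Doxo. The red cell genes Hba-a1, Hbb-bs and Alas2 all fell. In such tissue RNA, fewer cells of a type and less RNA per cell cannot be told apart. Hearts with a level of the atrial gene Myl4 over 100 CPM numbered 8 of 14 in Ctrl, 5 of 13 in Doxo and 4 of 13 in Doxo-NMN of the acute study.

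Scaled to exon length as well (RPKM, the CPM per kilobase of exon), core and cap genes lay in the same range in untreated hearts. In acute Ctrl hearts the 14 core genes ranged from 18.7 to 71.8 RPKM with a median of 28.5, and the 17 cap genes ranged from 11.7 to 72.1 RPKM with a median of 25.8. The highest levels were those of Psmc3, a cap ATPase, at 72.1 ± 6.09 RPKM (SD, n = 14), and Psma6, an alpha ring subunit, at 71.8 ± 5.98 RPKM (SD, n = 14), which did not differ beyond their spread. Among the cutting subunits, Psmb5 stood at 48.1, Psmb6 at 45.3 and Psmb7 at 23.5 RPKM, whereas the immunoproteasome counterparts Psmb10, Psmb8 and Psmb9 stood at 14.7, 1.39 and 1.17 RPKM. Each standard gene thus had a higher level than its counterpart in acute Ctrl hearts. Psmb10 was the highest of the 3 immunoproteasome genes in the Ctrl hearts of both studies (28.7 RPKM in the chronic study, against 3.51 for Psmb8 and 3.05 for Psmb9). In chronic Ctrl hearts Psmb7 (30.3 ± 4.33 RPKM, SD, n = 5) and Psmb10 (28.7 ± 5.84 RPKM) did not differ beyond their spread in RPKM. In CPM, Psmb10 was at 49.6 ± 20.4% of Psmb7 (SD, n = 5), with exon lengths of 1705 bases for Psmb10 and 3421 for Psmb7. The lengths are from GENCODE vM21, which may not be the annotation used for either count table. An order of genes in RPKM rests on these lengths, and the SD does not cover an error in them.

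After acute Doxo the transcripts of the whole 19S cap and of most of the 20S core were higher than in Ctrl (median log2 fold changes of 0.64 and 0.38), while 2 of 3 immunoproteasome genes and 3 of 4 activators were lower. In acute Doxo vs. Ctrl, 32 of the 45 tested members rose and 6 fell at an adjusted p under 0.05 (edgeR's quasi-likelihood test with Benjamini-Hochberg adjustment over all 14240 genes tested, used for every adjusted p of a single gene below). Over all genes tested, 34.8% rose and 33.3% fell by the same rule. With a change of at least 1.5-fold asked for as well, 13 members rose and 0 fell, against 14.7% and 15.4% of all genes. The median log2 fold change of the 45 members was 0.43, and that of all genes tested was -0.0016. The p-values measure the spread between hearts as labelled, each taken as 1 animal.

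**Figure D1:**
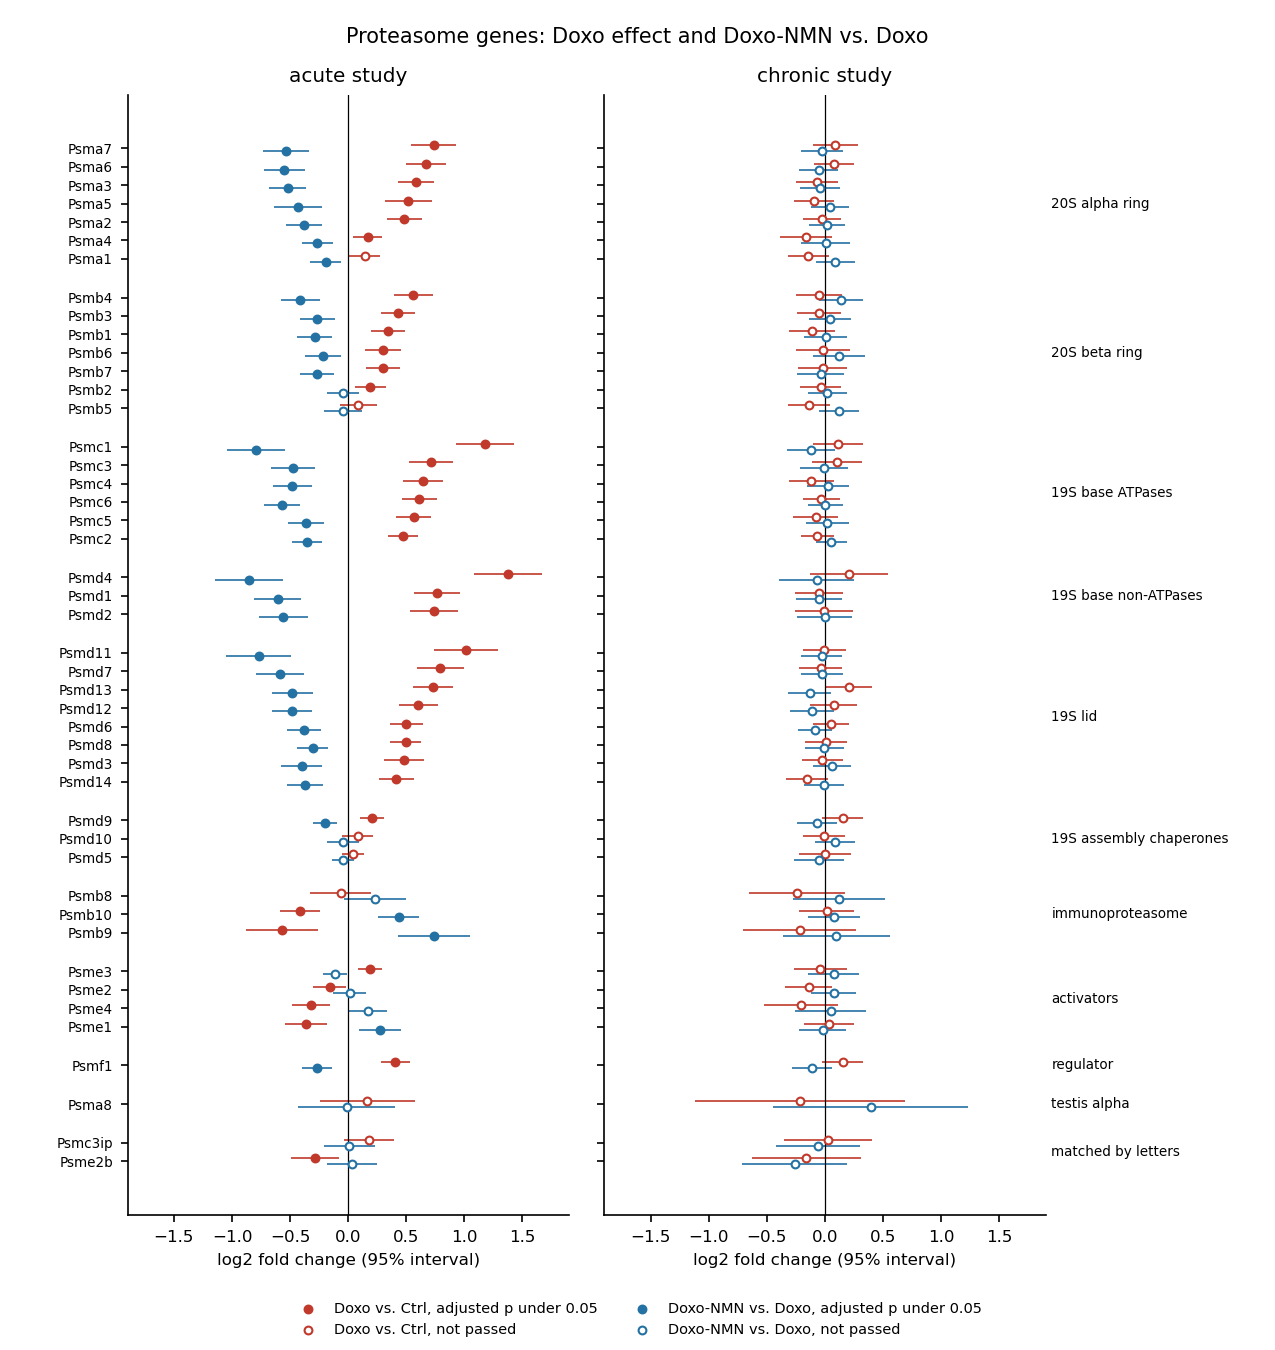
Log2 fold change (x axis) of each tested proteasome gene (y axis, grouped by class) in the acute and chronic studies for Doxo vs. Ctrl and Doxo-NMN vs. Doxo, with 95% confidence intervals as lines. In acute Doxo vs. Ctrl the 17 cap genes lie between 0.41 and 1.37, whereas in the chronic study they lie between -0.15 and 0.21.

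All 17 cap subunits rose in acute Doxo vs. Ctrl, with log2 fold changes from 0.41 to 1.37 and a median of 0.64, and 11 of them rose at least 1.5-fold. The median was 0.63 over the 6 ATPases of the base (Psmc1 to Psmc6), 0.77 over Psmd1, Psmd2 and Psmd4, the other subunits of the base, and 0.55 over the 8 subunits of the lid (Psmd3, Psmd6, Psmd7, Psmd8 and Psmd11 to Psmd14). Beside the 3 described next, those past 1.5-fold were Psmd7 (0.79), Psmd1 (0.77), Psmd2 (0.74), Psmd13 (0.73), Psmc3 (0.71), Psmc4 (0.64), Psmc6 (0.61) and Psmd12 (0.60), and Psmc5, Psmd6, Psmd8 and Psmd3 rose by 0.48 to 0.56. Exons of Psmd13 share 10.1% of their bases with Sirt3.

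The largest rise was that of Psmd4 (chr3:95032694-95042614, minus strand, GRCm38), a ubiquitin receptor of the cap. Its level was 71.7 to 87.8 CPM in Ctrl (median 78.2), 81.2 to 311 CPM in Doxo (median 216) and 88.3 to 213 CPM in Doxo-NMN (median 98.4). Of the 13 Doxo hearts, 12 lay above the highest Ctrl heart and replicate 6 lay among the Ctrl hearts. Psmd4 rose 2.59-fold with Doxo (log2 fold change 1.37 ± 0.14 (SE), edgeR adjusted p = 4.8e-10), and 1.44 on the log2 scale without replicate 6.

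Psmc1 (chr12:100110154-100123405, plus strand), an ATPase of the base, came next. It ranged from 103 to 126 CPM in Ctrl (median 111), from 115 to 380 CPM in Doxo (median 244) and from 115 to 244 CPM in Doxo-NMN (median 133). Again 12 of 13 Doxo hearts exceeded every Ctrl heart, and the fitted rise was 2.26-fold (1.18 ± 0.12, adjusted p = 4e-10, and 1.24 on the log2 scale without replicate 6). Psmd11 (chr11:80428615-80473248, plus strand), a scaffold subunit of the lid known for its link to proteasome assembly, ranged from 67.8 to 82.2 CPM in Ctrl (median 74.9), from 81.2 to 260 CPM in Doxo (median 133) and from 73 to 165 CPM in Doxo-NMN (median 79.2). The groups Ctrl and Doxo met only at their edges, with 12 of 13 Doxo hearts above the highest Ctrl heart, and Psmd11 rose 2.02-fold (1.01 ± 0.14, adjusted p = 5.4e-08, and 1.06 without replicate 6).

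The smallest rises of the cap were those of Psmd14 and Psmc2. Psmd14, a deubiquitinase of the cap, had a mean of 38.1 ± 2.73 CPM (SD, n = 14) in Ctrl and of 50.7 ± 10.3 CPM (SD, n = 13) in Doxo, a rise of 1.33-fold (0.41 ± 0.08, adjusted p = 1e-05). The ATPase gene Psmc2 went from 84.7 ± 6.2 CPM to 117 ± 16.9 CPM, a rise of 1.38-fold (0.47 ± 0.06, adjusted p = 4.9e-08). For Psmd14, 11 of 13 Doxo hearts lay above the highest Ctrl heart, and for Psmc2 10 of 13 did. The SD among Doxo hearts was larger than that among Ctrl hearts for each of the 5 cap genes described.

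**Figure D2:**
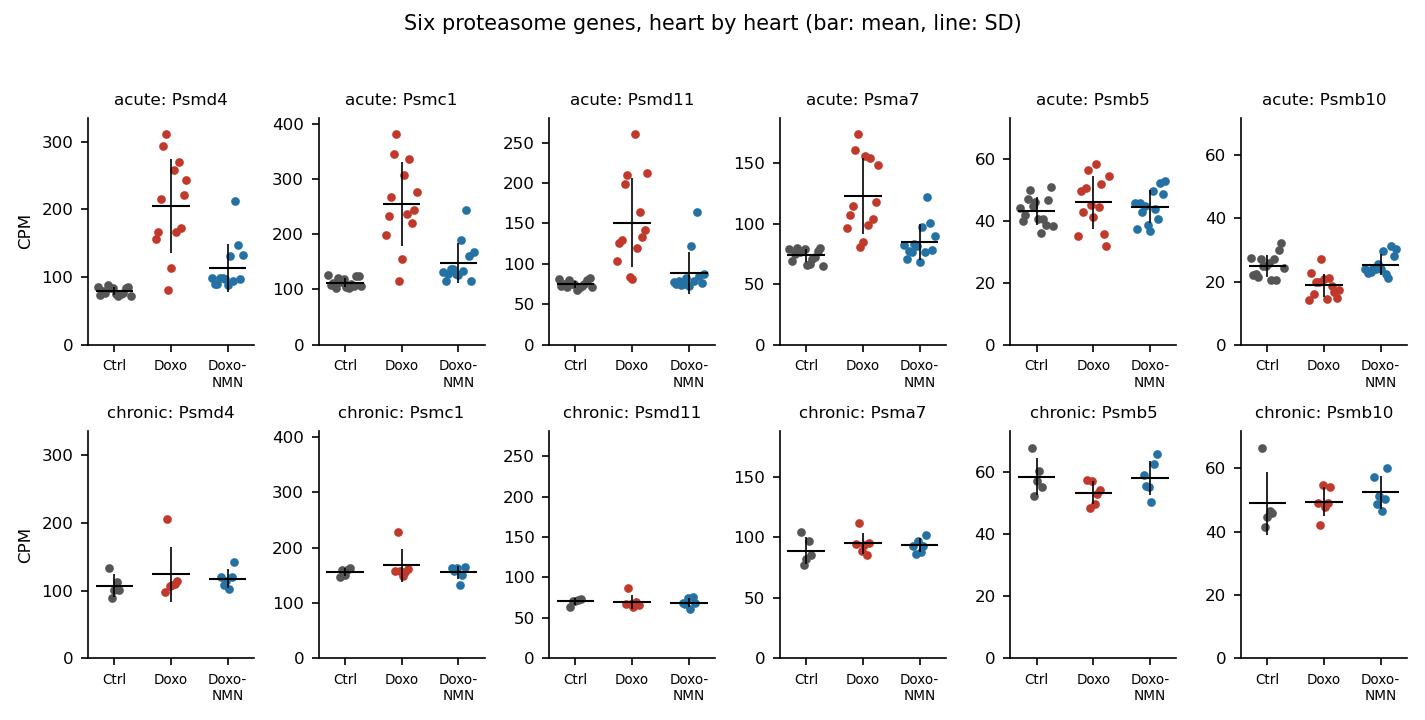
CPM (y axis) of Psmd4, Psmc1, Psmd11, Psma7, Psmb5 and Psmb10 in every heart, by group (x axis), in the acute (top) and chronic (bottom) study, with the mean as a bar and the SD as a line. Acute Doxo hearts spread upwards for the first 4 genes (81.2 to 311 CPM for Psmd4), cover the Ctrl range for Psmb5 and lie lower for Psmb10, and in the chronic study 1 Doxo heart at 205 CPM stands above the rest for Psmd4.

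In the 20S core, 12 of 14 genes rose with acute Doxo, with a median log2 fold change of 0.38, and 2 of them rose at least 1.5-fold. In the alpha ring 6 of 7 genes rose (median 0.52) and in the beta ring 6 of 7 (median 0.30), and no core gene fell. The 2 that did not pass were Psma1 and Psmb5.

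Psma7 (chr2:180036374-180042433, minus strand), an alpha ring subunit, ranged from 65.5 to 79.9 CPM in Ctrl (median 75.9), from 81 to 174 CPM in Doxo (median 115) and from 68.1 to 122 CPM in Doxo-NMN (median 81.5). All 13 Doxo hearts, replicate 6 included, lay above the highest Ctrl heart, and Psma7 rose 1.66-fold (0.73 ± 0.10, adjusted p = 3.5e-08). The alpha subunit gene Psma6 went from 88.6 ± 7.39 to 141 ± 32 CPM, a rise of 1.59-fold (0.67 ± 0.08, adjusted p = 1.7e-08). Psma3 went from 72.7 ± 3.77 to 109 ± 22.6 CPM, a rise of 1.5-fold (0.58 ± 0.08, adjusted p = 4.4e-08), its fitted value of 1.498 lying just under the fold limit. At the other end, Psma1 went from 90.4 ± 5.24 to 99.9 ± 17.5 CPM and did not pass (0.14 ± 0.07, adjusted p = 0.0502), although it passed without Doxo replicate 6 (0.15, adjusted p = 0.047).

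Of the 3 standard cutting subunits, Psmb6 and Psmb7 rose and Psmb5 did not pass. Psmb5 (chr14:54614119-54618022, minus strand), which carries the chymotrypsin-like activity, ranged from 36.2 to 51 CPM in Ctrl (median 43.2), from 31.7 to 58.3 CPM in Doxo (median 45.2) and from 36.8 to 53 CPM in Doxo-NMN (median 44.8). The 3 groups covered one another, with 4 Doxo hearts above and 3 below all Ctrl hearts, and Psmb5 did not pass (0.09 ± 0.08, adjusted p = 0.32). Psmb6, with the caspase-like activity, went from 84.8 ± 8.04 to 105 ± 19.8 CPM (0.30 ± 0.08, adjusted p = 0.00072). Psmb7, with the trypsin-like activity, went from 80.3 ± 8.23 to 98.8 ± 17.4 CPM (0.30 ± 0.07, adjusted p = 0.00041). Exons of Psmb5 share 12.1% of their bases with Mir686, and those of Psmb7 share 11.8% with Nek6. The other core genes that rose were Psmb4 (0.56), Psma5 (0.52), Psma2 (0.48), Psmb3 (0.43), Psmb1 (0.34), Psmb2 (0.19) and Psma4 (0.17).

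Cap and core were also compared within each heart. A class score was computed for each heart as the mean over its genes of log2 CPM minus the Ctrl mean. The cap score ranged from -0.12 to 0.13 in Ctrl, from 0.09 to 1.15 in Doxo (median 0.63) and from -0.04 to 0.60 in Doxo-NMN (median 0.11). The core score ranged from -0.17 to 0.14 in Ctrl, from 0.0061 to 0.73 in Doxo (median 0.32) and from -0.14 to 0.32 in Doxo-NMN (median 0.050). The lowest cap score among Doxo hearts, 0.09, was that of replicate 6. The cap score exceeded the core score in 12 of 13 Doxo hearts, 13 of 13 Doxo-NMN hearts and 8 of 14 Ctrl hearts, with a median difference of 0.32 in Doxo, 0.083 in Doxo-NMN and 0.0043 in Ctrl.

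**Figure D3:**
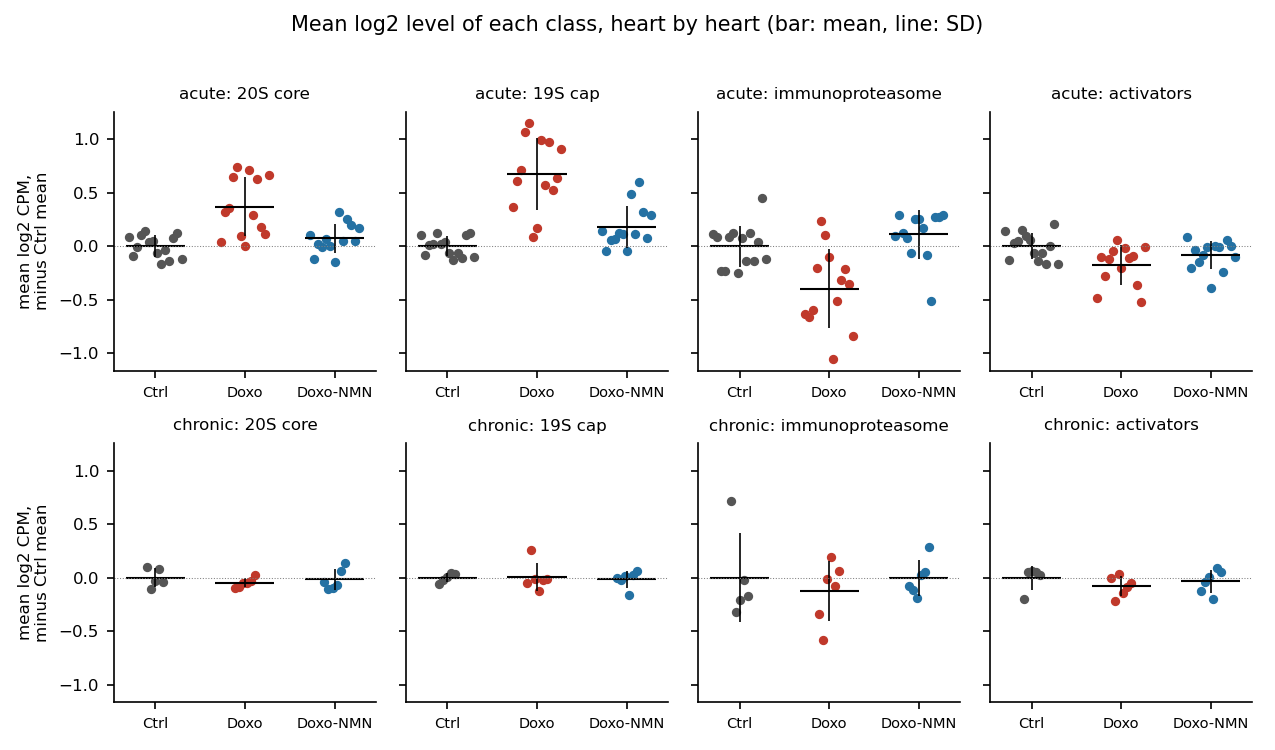
Class score of each heart (y axis, mean log2 CPM of the class minus the Ctrl mean) for the cap, core, immunoproteasome and activator genes, by group and study. Acute Doxo hearts reach 1.15 for the cap and 0.73 for the core, and fall to -1.05 for the immunoproteasome.

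Of the chaperones that assemble the cap and leave it again, Psmd9 rose slightly with acute Doxo, from 11.4 to 14.5 CPM in Ctrl (median 12.6) to 12.2 to 16.6 CPM in Doxo (median 14.6), with a log2 fold change of 0.20 ± 0.05 (adjusted p = 0.00065). Exons of Psmd9 share 25.5% of their bases with Gm26745, so part of its reads may belong to that gene. Psmd5 (0.05, adjusted p = 0.39) and Psmd10 (0.08, adjusted p = 0.26) did not pass. The testis subunit gene Psma8 was listed at 0.32 to 1.01 CPM in Ctrl and 0.40 to 1.53 CPM in Doxo and did not pass (0.16, adjusted p = 0.48), nor did Psmc3ip (0.18, adjusted p = 0.14). The thymus subunit gene Psmb11 had 0 counts in 12 of 14 Ctrl, 9 of 13 Doxo and 12 of 13 Doxo-NMN hearts of the acute study and at most 3 counts in any heart. A count of 0 allows at most 0.0926 CPM in the acute libraries and 0.169 CPM in the chronic ones, limits that cover counting error only.

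Among the immunoproteasome genes, Psmb9 and Psmb10 fell in acute Doxo vs. Ctrl and Psmb8 did not pass. Psmb9 (chr17:34181987-34187764, minus strand) ranged from 3.05 to 5.92 CPM in Ctrl (median 4.35), from 1.23 to 4.96 CPM in Doxo (median 3.01) and from 2.83 to 6.45 CPM in Doxo-NMN (median 5.11). Of the Doxo hearts 7 of 13 lay below every Ctrl heart, and the fall was to 0.674 of the Ctrl level (-0.57 ± 0.15, adjusted p = 0.0013), or -0.63 on the log2 scale without Doxo replicate 6. Exons of Psmb9 share 5.79% of their bases with Tap1 on the opposite strand, a gene that rose (0.49 ± 0.18, adjusted p = 0.015), and the sources used here do not state whether counting used strand.

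Psmb10 (chr8:105935735-105938444, minus strand) ranged from 20.4 to 32.1 CPM in Ctrl (median 24.9), from 14 to 27.2 CPM in Doxo (median 18.6) and from 21 to 31.2 CPM in Doxo-NMN (median 24.1). Here 9 of 13 Doxo hearts lay below the lowest Ctrl heart, and Psmb10 fell to 0.749 of the Ctrl level (-0.42 ± 0.09, adjusted p = 5.5e-05, and -0.47 without replicate 6). Psmb8 (chr17:34197721-34201454, plus strand) stood at 4.7 ± 0.739 CPM in Ctrl and 4.49 ± 1.48 CPM in Doxo and did not pass (-0.07 ± 0.13, adjusted p = 0.66). Exons of Psmb8 share 14.7% of their bases with Gm20496.

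Of the 4 activators 3 fell and 1 rose. Psme1 and Psme2 encode the interferon-inducible activator of the core. Psme1 ranged from 73.6 to 103 CPM in Ctrl (median 83.9) and from 48.8 to 95.1 CPM in Doxo (median 69.1), with 10 of 13 Doxo hearts below the lowest Ctrl heart (-0.36 ± 0.09, adjusted p = 0.00046). Psme2 ranged from 31.9 to 45.6 CPM in Ctrl and from 24.1 to 42.7 CPM in Doxo (-0.16 ± 0.07, adjusted p = 0.04) and did not pass in DESeq2 (adjusted p = 0.055). Psme4, a large activator of the core linked to histone degradation, fell from 444 ± 45.3 to 356 ± 67.3 CPM (-0.32 ± 0.08, adjusted p = 0.0007). Psme3, the nuclear activator, rose slightly from a median of 63 to 70.5 CPM (0.19 ± 0.05, adjusted p = 0.0016). Psmf1, which encodes a protein that binds the core and inhibits it in vitro, rose 1.32-fold from 17.3 ± 1.14 to 22.9 ± 3.53 CPM (0.41 ± 0.06, adjusted p = 5.2e-07). Psme2b fell with a log2 fold change of -0.29 ± 0.10 (adjusted p = 0.014), at a mean level of 2.68 CPM in Ctrl and 2.2 CPM in Doxo.

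Because a replacement subunit takes the place of its standard counterpart in the core, the CPM ratio of each pair was compared within hearts. The ratios are of CPM and are not scaled to exon length, so they compare groups and not the 2 genes. They reuse the genes tested above and are not separate evidence. Since Psmb6 and Psmb7 rose with acute Doxo, part of a fall in their ratios lies in the standard gene. Psmb10 over Psmb7 was 31.2 ± 3.21% (SD, n = 14) in Ctrl, 19.5 ± 5.39% (SD, n = 13) in Doxo and 31.1 ± 4.0% (SD, n = 13) in Doxo-NMN. The log2 ratio fell by 0.72 in Doxo vs. Ctrl (two-sided permutation test, p = 2e-05, the smallest that 100000 resamples can give, adjusted p = 0.00018 over the 18 ratio tests). Psmb9 over Psmb6 was 5.12 ± 1.17% in Ctrl, 2.89 ± 1.19% in Doxo and 5.51 ± 1.71% in Doxo-NMN. Its log2 ratio fell by 0.92 in Doxo vs. Ctrl (permutation p = 0.00016, adjusted p = 0.00096). Psmb8 over Psmb5 was 10.9 ± 1.75% in Ctrl and 10.1 ± 3.6% in Doxo and did not pass (-0.19, permutation p = 0.271, adjusted p = 0.697).

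**Figure D4:**
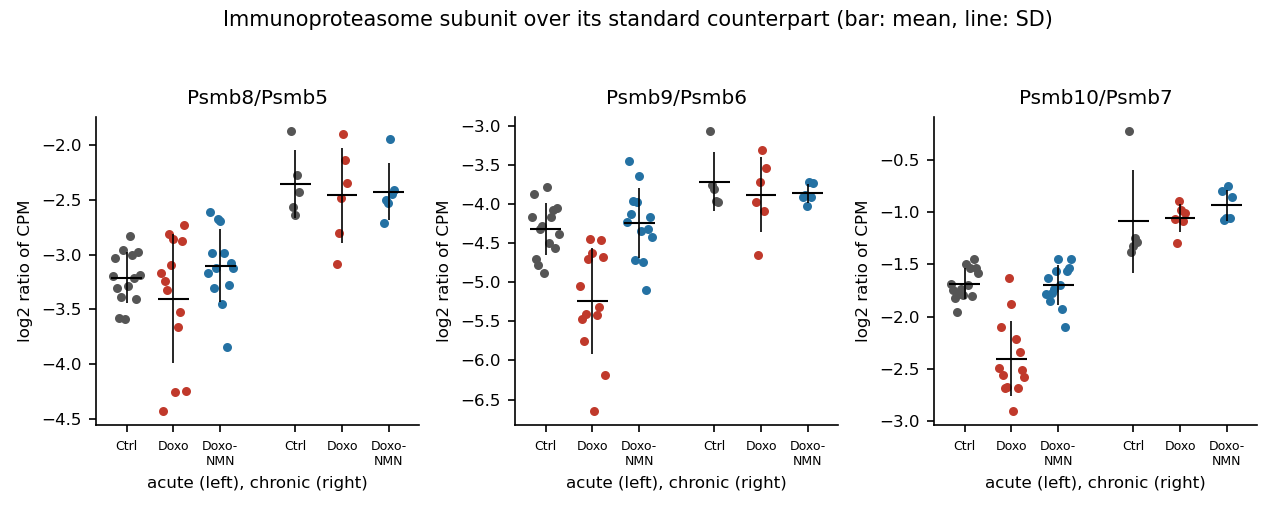
Log2 ratio of CPM of each immunoproteasome gene over its standard counterpart (y axis) in every heart, acute study on the left and chronic study on the right of each panel, with the mean as a bar and the SD as a line. For Psmb9/Psmb6 and Psmb10/Psmb7 the acute Doxo hearts lie lower than the other 2 acute groups (means of -5.24 and -2.40), and in the chronic study Ctrl replicate 1 lies above all other hearts at -3.06 and -0.22.

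Leukocyte markers moved in the same hearts. The summed level of the 12 markers examined ranged from 160 to 239 CPM in Ctrl, from 75.9 to 359 CPM in Doxo and from 108 to 217 CPM in Doxo-NMN of the acute study, and no marker was at 0 in every heart. Of the 9 tested, the neutrophil genes S100a8 (log2 fold change 5.04) and S100a9 (4.36), Itgam (0.92) and the macrophage gene Cd68 (0.45) rose with Doxo. The macrophage genes Adgre1 (-1.44), Csf1r (-1.07) and Lyz2 (-0.91), the B cell gene Cd79a (-1.15) and the pan-leukocyte gene Ptprc (-0.50) fell. The macrophage genes thus did not move in 1 direction. Of 4 endothelial markers Pecam1 rose while Kdr (-0.95) and Tek fell, with a summed level of 524 to 676 CPM in Ctrl, 373 to 683 CPM in Doxo and 391.6 to 600 CPM in Doxo-NMN. Of 4 fibroblast markers Dcn rose while Lum and Col1a1 (-2.39) fell, with sums of 468 to 922, 478 to 1243 and 397 to 963 CPM. The part of these markers in the proteasome values was not tested.

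With NMN given as well, more proteasome genes were lower than higher relative to Doxo alone. In acute Doxo-NMN vs. Doxo, 31 of the 45 tested members were lower and 3 were higher, against 27.4% and 25.7% of all genes tested. At 1.5-fold or more 5 were lower and 1 was higher, against 8.88% and 8.17% of all genes. Doxo-NMN vs. Doxo and Doxo vs. Ctrl share the Doxo hearts, so a chance deviation of those hearts moves both in opposite directions.

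All 17 cap genes were lower in Doxo-NMN than in Doxo (median log2 fold change -0.48, range -0.86 to -0.31), as were 12 of 14 core genes (median -0.28). Psmd4 fell to 0.553 of its Doxo level (-0.86 ± 0.15, adjusted p = 1.4e-05), Psmc1 to 0.577 (-0.79 ± 0.12, adjusted p = 4.5e-06) and Psmd11 to 0.586 (-0.77 ± 0.14, adjusted p = 2.8e-05). The smallest p was that of Psmc6, an ATPase of the base, with means of 90.1 ± 5.38, 138 ± 26.3 and 92.8 ± 12.5 CPM in Ctrl, Doxo and Doxo-NMN. For Psmc6, 10 of 13 Doxo-NMN hearts lay below the lowest Doxo heart, and it fell to 0.673 of the Doxo level (-0.57 ± 0.08, adjusted p = 8.4e-07). In the core, Psma7 fell to 0.691 of its Doxo level (-0.53 ± 0.10, adjusted p = 3.8e-05), whereas Psmb5 (-0.04, adjusted p = 0.66) and Psmb2 did not pass.

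Psmb9 and Psmb10 were higher in Doxo-NMN than in Doxo. Psmb9 was 1.67-fold higher (0.74 ± 0.16, adjusted p = 0.00017) and Psmb10 was 1.35-fold higher (0.44 ± 0.09, adjusted p = 9.7e-05). The third member that was higher was Psme1, at 82.4 ± 14.2 CPM in Doxo-NMN (0.27 ± 0.09, adjusted p = 0.011). Psmb8 (0.23, adjusted p = 0.14) and Psme4 (0.17, adjusted p = 0.078) did not pass. Markers of other cells moved in this comparison too. Of the 9 tested leukocyte markers Adgre1 (1.099), Lyz2 (0.53) and Csf1r (0.36) were higher and S100a8 (-1.84) and S100a9 (-1.63) lower, 4 of the 6 cardiomyocyte markers were higher and 1 lower, and the 3 red cell genes were lower (-2.03 to -4.82). Their part in these values was not tested. The log2 ratio Psmb10/Psmb7 was 0.71 higher in Doxo-NMN than in Doxo (permutation p = 2e-05, adjusted p = 0.00018) and Psmb9/Psmb6 was 0.998 higher (permutation p = 0.00024, adjusted p = 0.00108).

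Against Ctrl the number of members that differed in Doxo-NMN hearts depended on the fit. In acute Doxo-NMN vs. Ctrl 5 of the 45 tested members (11.1%) were higher and 0 lower, against 15% and 11.1% of all genes tested. The share higher was thus under that of all genes. None passed at 1.5-fold, against 3.31% and 3.79%. Of lower members, Psme2b (-0.25, edgeR p = 0.018) and Psme2 (-0.15, edgeR p = 0.041) had an unadjusted p under 0.05, and DESeq2 called 0. The 5 were the cap genes Psmd4, Psmc1, Psmd13, Psmd8 and Psmc5. Psmd4 was 1.43-fold higher than in Ctrl (0.52 ± 0.14, adjusted p = 0.0067), with all 13 Doxo-NMN hearts above the highest Ctrl heart. Psmc1 was 1.31-fold higher (0.38 ± 0.12, adjusted p = 0.017), and Psmd13, Psmd8 and Psmc5 differed by 0.25, 0.19 and 0.20 on the log2 scale (adjusted p = 0.029, 0.03 and 0.045). With only these 2 groups fitted 16 members were higher and 3 lower, with a term for atrial genes 2 were higher and 4 lower, and 0 were higher among the hearts under or among those over the Myl4 limit of 100 CPM. The count also depended on 4 single Doxo-NMN hearts, falling to 2, 1, 3 and 2 without replicates 8, 10, 11 and 13. Without replicate 10, the acute Doxo-NMN heart furthest along the scale of the Doxo effect, Psmd4 was at 0.41 (edgeR adjusted p = 0.022). Psmc1 (0.30, edgeR adjusted p = 0.051) and Psmd13 (0.21, edgeR adjusted p = 0.068) then did not pass. Shares of all genes under these other fits are not given here, so the shifts cannot be read as particular to the members. The log2 ratios of the immunoproteasome pairs did not pass against Ctrl (0.11, 0.08 and -0.01 for Psmb8/Psmb5, Psmb9/Psmb6 and Psmb10/Psmb7, permutation test, lowest adjusted p = 0.734).

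Genes that work with the proteasome but lie outside the naming rule were examined in 43 tested genes of 7 lists. With acute Doxo 28 rose and 6 fell, against 34.8% and 33.3% of all genes tested, and 7 rose and 2 fell by at least 1.5-fold, against 14.7% and 15.4%. Among factors that bind the proteasome or carry substrates to it, 10 of 12 rose and 1 fell. Both cap subunits outside the rule, Adrm1 and Sem1, rose, as did all 4 genes of the p97 segregase, which pulls ubiquitin-tagged proteins from complexes. Of 6 ubiquitin genes 4 rose and 1 fell, of 4 regulators of proteasome genes 3 rose, of 5 core assembly factors 2 rose (Pomp and Psmg4) and 2 fell (Psmg1 and Psmg3), and of 10 antigen presentation genes 3 rose and 2 fell, the first a share near that of all genes.

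The largest change was that of Ubb, a polyubiquitin gene, which rose 2.08-fold (1.06 ± 0.13, adjusted p = 9.1e-09). The p97 cofactor gene Nploc4 rose 2.01-fold (1.004 ± 0.101, adjusted p = 2.4e-10) and its partner Ufd1 rose 1.52-fold (0.60 ± 0.07, adjusted p = 1.3e-09). Uchl5, a deubiquitinase of the cap, rose 1.86-fold (0.90 ± 0.09, adjusted p = 2.6e-10), and Adrm1, the ubiquitin receptor that recruits it, rose 1.77-fold (0.83 ± 0.09, adjusted p = 1e-09). H2-K1, an antigen-presenting heavy chain, rose 1.63-fold (0.71 ± 0.13, adjusted p = 7.3e-06). Uba6, a ubiquitin-activating enzyme, fell to 0.627 of its Ctrl level (-0.67 ± 0.10, adjusted p = 5.8e-07). Among the regulators, Nfe2l1, the transcription factor known to induce proteasome genes, did not pass (-0.06, adjusted p = 0.54), whereas Ddi2 (0.59, adjusted p = 0.00017) and Ngly1 (0.55, adjusted p = 7.6e-07), which encode enzymes that process its protein, rose, as did Nfe2l2 (0.44, adjusted p = 3.2e-06). In acute Doxo-NMN vs. Doxo 9 of the 43 were higher and 21 lower, against 25.7% and 27.4% of all genes tested. In Doxo-NMN vs. Ctrl 8 were higher and 1 lower, against 15% and 11.1%, so that the share higher was near that of all genes.

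Promoters of members were searched on both strands for 3 motifs in windows from 250 bases before to 50 bases after the gene start (RefSeq, GRCm38.p6), available for 39 of the 46 members in 42 windows. TGACNNNGC, the core of the antioxidant response element recognised by the factors that Nfe2l1 and Nfe2l2 encode, was in the windows of 6 of 39 members and of 14% of the 27025 genes with a window. CCAAT was in those of 15 of the 39 members and of 41.1% of all genes. An interferon response motif, GAAA followed by any 2 bases and GAAA again, was in those of 4 of the 39 members (Psmb3, Psmd4, Psmd9 and Psme1) and of 4.0% of all genes. No match of 1 motif overlapped a match of another in the members, and a match is a description of letters, not a site. All 6 members with TGACNNNGC are shown. Their changes in acute Doxo differed: Psmc6 (0.61), Psmd12 (0.60), Psmb6 (0.30) and Psmd9 (0.20) rose, Psmb5 did not pass and Psme4 fell (-0.32). Sequences run 5′ to 3′ along the strand of the gene, with the match (or its reverse complement) in capitals.
Psmb5 (chr14:54618014-54618062, minus strand): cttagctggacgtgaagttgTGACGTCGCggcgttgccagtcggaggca
Psmb6 (chr11:70525328-70525376, plus strand): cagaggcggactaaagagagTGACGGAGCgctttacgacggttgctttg
Psmc6 (chr14:45329577-45329625, plus strand): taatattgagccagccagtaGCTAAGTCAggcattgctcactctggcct
Psmd12 (chr11:107479278-107479309, plus strand): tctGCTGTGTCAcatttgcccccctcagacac
Psmd9 (chr5:123228139-123228187, plus strand): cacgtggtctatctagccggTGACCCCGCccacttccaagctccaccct
Psme4 (chr11:30771748-30771796, plus strand): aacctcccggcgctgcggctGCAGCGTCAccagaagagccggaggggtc

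The 250 bases before the start are shown for the 2 members that rose most, Psmd4 and Psmc1, which lacked TGACNNNGC in these windows. Capitals mark CCAAT or its reverse complement in both and the reverse complement of the interferon response motif in Psmd4. In Psmc1 a CCAAT lay 175 bases before the start, and in Psmd4 the inverted CCAAT lay 95 and the interferon response motif 80 bases before it.
Psmc1 (chr12:100109952-100110201, plus strand): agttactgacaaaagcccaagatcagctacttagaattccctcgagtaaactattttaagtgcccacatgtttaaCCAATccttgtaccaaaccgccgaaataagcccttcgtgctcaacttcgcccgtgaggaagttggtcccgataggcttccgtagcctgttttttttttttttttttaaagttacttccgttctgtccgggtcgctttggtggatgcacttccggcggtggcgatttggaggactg
Psmd4 (chr3:95042615-95042864, minus strand): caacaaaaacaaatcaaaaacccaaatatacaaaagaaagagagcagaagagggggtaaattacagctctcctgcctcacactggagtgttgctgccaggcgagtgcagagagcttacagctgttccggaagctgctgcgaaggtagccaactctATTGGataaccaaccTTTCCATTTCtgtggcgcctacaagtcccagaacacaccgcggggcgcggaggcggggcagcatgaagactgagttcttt

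In the chronic study no proteasome gene passed the test in any comparison. In chronic Doxo vs. Ctrl 0 of 45 members rose and 0 fell (edgeR's quasi-likelihood test over 14960 genes), against 0.0535% and 0.00668% of all genes tested, so that few genes of any kind passed. At an unadjusted p under 0.05 there was 1 member, Psmd13, and 1174 of the 14960 genes. The median log2 fold change of the members was -0.030, and that of all genes was -0.00074. For the 17 cap genes the fitted values ran from -0.15 to 0.21 and their 95% confidence intervals from -0.33 to 0.54 at the widest. DESeq2 also called 0 members in this comparison.

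Psmd13, a lid subunit, had the smallest p. Its means were 61.3 ± 3.66 CPM in the 5 Ctrl hearts, 70.7 ± 10.7 CPM in the 6 Doxo hearts and 64.5 ± 4.33 CPM in the 6 Doxo-NMN hearts (SD), with Doxo replicate 2 at 92.0 CPM and the other Doxo hearts between 63.4 and 70.5 CPM. Its log2 fold change was 0.21 ± 0.09 (adjusted p = 0.619), and 0.12 (adjusted p = 0.999) without Doxo replicate 2. The smallest p on the lower side was that of Psmd14 (-0.15, edgeR unadjusted p = 0.093).

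Psmd4 was at 134, 88.8, 101, 112 and 100.5 CPM in the 5 chronic Ctrl hearts and at 98.7 to 205 CPM in Doxo (median 109). The heart at 205 CPM was Doxo replicate 2, and the other 5 Doxo hearts reached at most 114 CPM, within the Ctrl range. With all hearts the log2 fold change in Doxo vs. Ctrl was 0.21 ± 0.16 for Psmd4 (adjusted p = 0.761) and 0.11 ± 0.10 for Psmc1 (adjusted p = 0.804), and without Doxo replicate 2 it was 0.0070 and 0.0054 (adjusted p = 0.999 for both). Without Ctrl replicate 1, the highest of the Ctrl hearts, Psmd4 was at 0.30 (adjusted p = 0.597). The cap score of Doxo replicate 2 was 0.26, against -0.06 to 0.04 in Ctrl.

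Psmb10 was at 66.5, 41.5, 44.6, 46.6 and 45.8 CPM in the chronic Ctrl hearts, and Psmb9 at 20.6, 8.14, 9.09, 9.36 and 8.60 CPM. In both cases the high heart was Ctrl replicate 1. The Doxo and Doxo-NMN means were 49.5 ± 4.6 and 52.4 ± 5.21 CPM for Psmb10, and 9.58 ± 2.59 and 10.3 ± 2.09 CPM for Psmb9. With all hearts the log2 fold changes in Doxo vs. Ctrl were 0.015 ± 0.112 for Psmb10 (adjusted p = 0.983) and -0.22 ± 0.23 for Psmb9 (adjusted p = 0.832). Without Ctrl replicate 1 they were 0.15 (adjusted p = 0.62) and 0.13 (adjusted p = 0.86), so that the sign of the Psmb9 value turned, and none of these passed. Psmb10 over Psmb7 was 49.6 ± 20.4% in Ctrl, 48.3 ± 4.43% in Doxo and 52.7 ± 5.45% in Doxo-NMN, and none of the 9 chronic ratio tests passed (exact permutation tests, lowest adjusted p = 0.506). Without Ctrl replicate 1, Psmb10/Psmb7 was 0.37 higher on the log2 scale in Doxo-NMN than in Ctrl and passed (exact permutation test, adjusted p = 0.0343). With all hearts it was 0.16 higher (same test, adjusted p = 0.868). The adjustment ran over all 18 ratio tests, the acute ones included. The other Ctrl hearts had log2 ratios of -1.38 to -1.24. Doxo hearts had -1.30 to -0.89 and Doxo-NMN hearts -1.07 to -0.75, so most Doxo hearts without NMN lay above those Ctrl hearts as well. The leukocyte marker sum was 132 to 177 CPM in chronic Ctrl hearts and 91.6 to 146 CPM in Doxo hearts, and its part in these values was not tested.

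The 2 chronic comparisons with the Doxo-NMN group likewise had 0 members higher and 0 lower. Of all genes tested, 0% were higher and 0% lower against Doxo, and 0.0401% were higher and 0% lower against Ctrl. By edgeR at an unadjusted p under 0.05, 441 and 707 of the 14960 genes but no member passed in these comparisons, and DESeq2 called 0 members in each. The members with the smallest p were Psmb4, a beta ring subunit, at 0.14 (p = 0.15, edgeR) in Doxo-NMN vs. Doxo, and Psme2b at -0.42 (p = 0.077, edgeR) in Doxo-NMN vs. Ctrl. Of the other pathway genes none passed in the chronic study either.

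The Doxo effect itself was then compared between the studies with an interaction term (Ctrl and Doxo hearts of both studies, 14965 genes). It was larger in the acute study for 25 of the 45 members and smaller for 0, against 11% and 8.33% of all genes tested. All 17 cap genes were among the 25 (median difference of log2 fold changes 0.64), with 8 of 14 core genes, 5 of the alpha and 3 of the beta ring (median over the core 0.46). The difference was 1.16 for Psmd4, 1.06 for Psmc1, 1.01 for Psmd11, 0.64 for Psma7 and 0.56 for Psmd14. Without chronic Doxo replicate 2 the counts were 26 and 2, and without acute Doxo replicate 6 they were 25 and 2. The 2 were Psmb10 and Psme1 in each case, and with all hearts these were the only members on that side with an unadjusted p under 0.05 (-0.44 and -0.40, edgeR p = 0.013 and 0.011). The studies differ in mouse supplier, diet, site, age, dose schedule, sampling day, diluent, sequencing provider and annotation of the count table. The parts of these in the difference cannot be told apart.

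**Figure D5:**
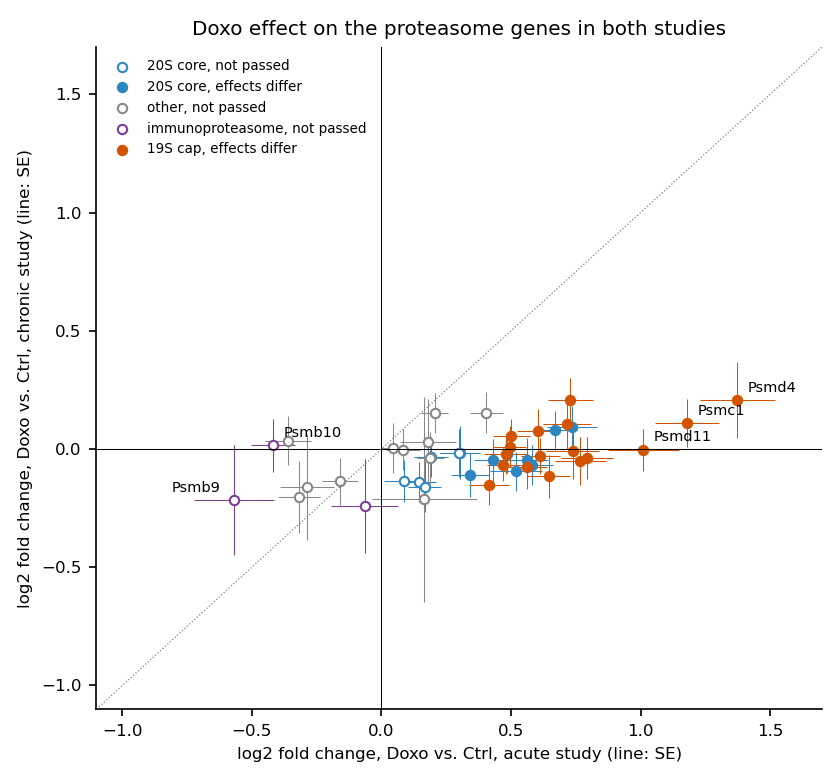
Log2 fold change of Doxo vs. Ctrl in the chronic study (y axis) against the acute study (x axis) for each tested proteasome gene, coloured by class. Cap genes reach 1.37 on the acute axis and stay between -0.15 and 0.21 on the chronic axis.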

How the data were processed

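RNA-seq was done on hearts of the 3 groups of an acute and a chronic study. The deposited files hold 1 table of raw read counts per gene and study. Per the study's methods and the submitters' processing notes, the authors made these counts from poly(A) libraries read as single ends, aligned with STAR (2.7.3a in the notes) to mm10 and counted with featureCounts 2.0.0. Whether counting used strand is not given in the sources used here. Among counts of 1 to 20, a median of 73.6% per heart were even in the acute table and 40.3% in the chronic table, a difference whose cause was not tested, and the acute counts were also tried divided by 2. The 2 tables use different annotations and were tested apart.

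Groups came from the sample labels. The proteasome genes, the pathway and marker lists and the tests were chosen with earlier results of these data known. Genes were kept with edgeR's filterByExpr, scaled by TMM and tested with edgeR 4.0.16 (glmQLFit and glmQLFTest, R 4.3.3) in 1 fit per study over its 3 groups, with Benjamini-Hochberg adjustment over all genes tested. A gene passed at an adjusted p under 0.05, and 1.5-fold was a further rule. The SE of a log2 fold change was taken as its size divided by the square root of F. CPM used TMM library sizes, and RPKM used exon lengths of GENCODE vM21 (GRCm38), whose gene positions are given. Log2 ratios of CPM were compared with two-sided permutation tests (the smaller tail times 2) written in numpy 2.4.6 and checked against scipy 1.17.1. These used 100000 resamples in the acute study and were exact in the chronic study, adjusted over 18 tests. The interaction of study and Doxo was fitted on Ctrl and Doxo hearts of both tables. The scripts were tested on simulated data.

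Values are given for the cutting subunits, activators, Psmf1, the cap chaperones, the 3 largest and 2 smallest changes of core and cap in acute Doxo vs. Ctrl, the smallest adjusted p per direction elsewhere, and pathway genes past 1.5-fold, up to 8, of which 1 is not reported here. Psmd8, Psmc5, Psmb2, Nfe2l1, Nfe2l2, Ngly1, Ddi2, Pomp, Psmg1, Psmg3, Psmg4 and Sem1 were named after their values were seen. Alternatives were DESeq2 1.42.0, other scalings, no filter, only the groups compared, the replicate block, an atrial term, hearts under or over 100 CPM of Myl4, and leaving out each heart.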

Additional observations from a re-analysis of the deposited data

Results flagged for a closer look

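Single chronic hearts stood apart in 18 of the 90 sets of values examined for a gap between the highest or lowest heart and the rest of its group. For 1 set alone chance gives about 1 in 20. The sets share the same hearts and the ratios reuse genes, so the 18 cannot be set against that rate. The acute groups hold more than 10 hearts and were not examined in this way. Chronic Doxo replicate 2, which had 2.26 on the scale of the Doxo effect, accounted for 8 of them. It was high for Psmd4 (205 CPM, other Doxo hearts 98.7 to 114), Psmc1 (229 CPM, others 149 to 162), Psmd11 (87.5 CPM, others 63.4 to 69.9), Psmd13 (92.0 CPM, others 63.4 to 70.5), Psma6 (147 CPM, others 113 to 124), Psma7 (112 CPM, others 85.7 to 95.3) and Psmf1 (24.8 CPM, others 18.4 to 20.2), and low for Psma1 (76.3 CPM, others 93.7 to 101).

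Chronic Ctrl replicate 1, which had -0.431 on the scale of the Doxo effect, accounted for 7. It was high for Psmb10 (66.5 CPM, other Ctrl hearts 41.5 to 46.6), Psmb9 (20.6 CPM, others 8.14 to 9.36) and the log2 ratios Psmb9/Psmb6 (-3.06, others -3.98 to -3.76) and Psmb10/Psmb7 (-0.22, others -1.38 to -1.24). It was low for Psmb7 (77.3 CPM, others 108 to 111), Psmd11 (63.6 CPM, others 71.2 to 72.9) and Psme3 (46.3 CPM, others 62.2 to 67.0). The other 3 were Psma3 in Doxo replicate 1 (49.8 CPM, others 57.2 to 60.8), Psmb7 in Doxo-NMN replicate 4 (78.4 CPM, others 99.3 to 109) and Psme2b in Doxo-NMN replicate 6 (2.30 CPM, others 1.41 to 1.65).

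For 11 genes described above the Doxo effect was larger in the acute than in the chronic study by the interaction test. Of these, Psmd4, Psmc1, Psmd11, Psma7, Psma6 and Psma3 were named for the largest acute changes, so a larger acute effect was partly set by the choice. Over all tested members the count was 25 of 45, and 11% of all genes tested passed in this direction. The difference of log2 fold changes was 1.16 for Psmd4, 1.06 for Psmc1, 1.01 for Psmd11, 0.65 for Psma3, 0.64 for Psma7, 0.64 for Psmc6, 0.60 for Psmb4, 0.58 for Psma6, 0.56 for Psmd14, 0.53 for Psmc2 and 0.52 for Psmd13.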

How the results depend on the processing

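Changes in the scaling (RLE size factors), the filter on low counts, the test (DESeq2) and the count scale (acute counts divided by 2) kept every count of members within 1.5 times of the reported one. DESeq2 called 32 members higher and 5 lower in acute Doxo vs. Ctrl, 3 and 31 in Doxo-NMN vs. Doxo and 4 and 0 in Doxo-NMN vs. Ctrl. No value for a called member or ratio changed sign under any alternative run. Of single-gene values, 4249 stayed on the same side of the threshold, 37 newly passed and 34 no longer passed. Asking for 1.5-fold left 13 members higher and 0 lower in acute Doxo vs. Ctrl, 1 higher and 5 lower in Doxo-NMN vs. Doxo and 0 higher in Doxo-NMN vs. Ctrl.

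The least settled count was that of acute Doxo-NMN vs. Ctrl, with 5 members higher and 0 lower. It was 16 higher and 3 lower with only these 2 groups fitted, 2 higher and 4 lower with an atrial term, and 0 higher among hearts under, and 0 among hearts over, the Myl4 limit, where fewer hearts were left. The causes of the first 2 shifts were not tested. Shares of all genes are given for the reported fit only, here and for the other alternatives. Leaving out 1 heart gave 1 to 6 higher and 0 to 1 lower here, 31 to 33 higher and 5 to 6 lower in Doxo vs. Ctrl, and 3 to 4 higher and 31 to 32 lower in Doxo-NMN vs. Doxo. Without acute Doxo replicate 6, or without chronic Doxo replicate 2 (an alternative chosen after the data were seen), 2 members instead of 0 had a smaller Doxo effect in the acute study.

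Among hearts over the Myl4 limit the ratio tests kept their direction but not their call, at -0.63 for Psmb9/Psmb6 in Doxo vs. Ctrl (permutation test, adjusted p = 0.133) and 1.12 for Psmb9/Psmb6 and 0.68 for Psmb10/Psmb7 in Doxo-NMN vs. Doxo (exact permutation tests, adjusted p = 0.0714 each), where few hearts limit the smallest p. Leaving out 1 heart gave 0.0848 to 0.375 for Psmb10/Psmb7 in chronic Doxo-NMN vs. Ctrl, the highest without Ctrl replicate 1.

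With the replicate number as a block, the members higher and lower were 32 and 6, 3 and 31, and 4 and 0 in the 3 acute comparisons and 0 in the chronic ones. The numbers did not pair hearts, since deviations of same-numbered hearts correlated from -0.68 to 0.65 (median 0.066, 18 of 39 pairs over 0.1) in the acute study and from -0.30 to 0.46 (5 of 16 pairs over 0.1) in the chronic study, and 3 of 39 and 3 of 17 hearts correlated best with their own number.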
